A study of Mus musculus with 16 samples.

Results

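Chromatin accessibility in bone marrow hematopoietic stem and progenitor cells (HSPCs) that had lost p300 was compared with that in HSPCs that had lost Tet2. ATAC-seq, which marks open chromatin by where a transposase can insert, had been run on 4 P300KO and 4 TET2KO libraries, and these 8 of the 16 libraries in the series are described here. Every mouse carried the Ep300 fl/fl alleles on the C57BL/6 background and had been injected with poly(I:C), an interferon inducer. P300KO cells came from Mx1-Cre;Ep300 fl/fl mice, in which interferon turns on a Cre driven by the Mx1 promoter that deletes Ep300. TET2KO cells came from Ep300 fl/fl;Tet2-/- mice, which had no Cre and kept Ep300, so the groups differed in the Cre transgene as well as in the gene that was lost. The remaining 8 libraries were 4 WT libraries, from Ep300 fl/fl mice, and 4 P300KO_TET2KO libraries, from Mx1-Cre;Ep300 fl/fl;Tet2-/- mice, and they entered no call between the single losses. Each library held 50000 viable cells pooled from 2 mice of 1 genotype. Mx1-Cre is also active outside HSPCs, and an ATAC library reports neither the share of cells in which Ep300 was deleted nor the share of each progenitor type.

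p300, encoded by Ep300, is a lysine acetyltransferase and coactivator that transcription factors recruit to enhancers and promoters, where it acetylates histones and other proteins. Tet2 oxidizes methylated cytosines and so opens a route to DNA demethylation, and it is best known in blood for loss-of-function mutations in clonal hematopoiesis and myeloid malignancy. In HSPCs, enhancers are held by shared groups of factors: Gata2, Runx1, Fli1 and Erg bind DNA, and Tal1 acts with the bridging proteins Lmo2 and Ldb1, which Ssbp family proteins bind and stabilize.

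Each library was deposited as a list of called intervals. The lists held 86039 to 137335 intervals, and the interval at rank 50000 had a −log10 p of 5.74 to 10.1 in replicates 1 and 2 (pair 1) and of 34.8 to 53.9 in replicates 3 and 4 (pair 2), in both genotypes. Intervals were therefore ranked within each library by −log10 p, with rank 1 the strongest, and only the strongest 50000 were kept for calls. A region was called P300KO-held when an interval among the strongest 50000 overlapped it in 4 of 4 P300KO and in 0 of 4 TET2KO libraries, and TET2KO-held in the reverse case, so each call stood in both pairs. Strong intervals lay at the starts of 7 of 8 HSPC markers in all 8 libraries (among them Kit, Cd34, Flt3, Meis1, Gata2 and Cd48), and Ly6a had one in 1 of 4 P300KO and 2 of 4 TET2KO libraries. The starts of Ms4a1, Cd79a, Cd3e, Cd4, Cd8a, C1qa, Marco, Emcn and Lepr, which mark mature B, T, macrophage, endothelial or stromal cells, had a strong interval in 0 of 8. Pax5, Cd3d, Adgre1, Cd68 and Col1a1 from the same marker lists had one in 8 of 8, and Cdh5 in 3 of 4 P300KO and 4 of 4 TET2KO libraries.

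At the target genes, intervals do not read the deletions themselves. The Ep300 promoter ranked 5373, 4034, 6066 and 6412 in P300KO replicates 1 to 4 and 8638, 9830, 5657 and 4933 in TET2KO replicates 1 to 4. The Tet2 promoter ranked 9292, 5409, 9960 and 10565 in P300KO and 8663, 8744, 9770 and 12361 in TET2KO. The ranges overlapped at both promoters, and both stayed among the strongest intervals of every library. No region at Ep300, Tet2 or Myb was called.

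The 8 lists merged into 66662 regions, of which 34186 were held in 8 of 8 libraries and 8766 in only 1. There were 112 P300KO-held regions (0.168% of all regions) and 113 TET2KO-held regions (0.17%). Examples of their sequence are shown because these regions crossed the limit in every library of both pairs. The windows below are 201 bases centred on the strongest summit, plus strand, mm10 (sequence from GRCm38.p6), with the letters of 12 short binding-site strings in capitals; they come from introns of Ssbp2 and Ssbp3 and from the region nearest Lmo2 (P300KO-held), and from the regions at Ldb1, Fli1, Pde4d and Sec24b (TET2KO-held).
Ssbp2 intron, chr13:91611959-91612159: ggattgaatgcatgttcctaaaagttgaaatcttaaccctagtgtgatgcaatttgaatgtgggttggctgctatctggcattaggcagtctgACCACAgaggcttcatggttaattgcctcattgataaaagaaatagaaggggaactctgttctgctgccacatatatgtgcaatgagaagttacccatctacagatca
Ssbp3 intron, chr4:106951557-106951757: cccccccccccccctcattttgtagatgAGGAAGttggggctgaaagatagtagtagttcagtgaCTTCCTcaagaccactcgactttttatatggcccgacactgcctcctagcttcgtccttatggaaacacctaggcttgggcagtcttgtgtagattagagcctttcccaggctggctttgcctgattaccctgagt
Lmo2, chr2:103893838-103894038: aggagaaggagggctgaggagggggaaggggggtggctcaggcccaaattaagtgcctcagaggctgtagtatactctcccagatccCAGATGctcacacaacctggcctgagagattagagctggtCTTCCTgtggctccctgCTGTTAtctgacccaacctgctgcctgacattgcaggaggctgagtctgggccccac
Ldb1, chr19:46042029-46042229: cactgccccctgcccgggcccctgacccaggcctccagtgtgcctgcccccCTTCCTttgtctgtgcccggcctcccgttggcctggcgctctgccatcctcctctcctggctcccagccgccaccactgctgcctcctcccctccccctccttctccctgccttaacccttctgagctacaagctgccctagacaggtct
Fli1, chr9:32549395-32549595: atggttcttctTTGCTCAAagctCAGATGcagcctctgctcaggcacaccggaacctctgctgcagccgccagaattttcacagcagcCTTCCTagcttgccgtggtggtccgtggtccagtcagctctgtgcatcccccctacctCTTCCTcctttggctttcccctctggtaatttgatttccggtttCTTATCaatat
Pde4d intron, chr13:108714121-108714321: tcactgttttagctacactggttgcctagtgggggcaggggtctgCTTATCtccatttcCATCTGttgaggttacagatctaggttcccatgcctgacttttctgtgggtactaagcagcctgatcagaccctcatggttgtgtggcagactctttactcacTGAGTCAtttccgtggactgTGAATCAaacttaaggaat
Sec24b, chr3:130090438-130090638: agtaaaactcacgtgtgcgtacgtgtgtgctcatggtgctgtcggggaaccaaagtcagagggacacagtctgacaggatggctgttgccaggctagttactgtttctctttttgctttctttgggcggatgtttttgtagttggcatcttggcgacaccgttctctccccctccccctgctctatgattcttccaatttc
The capitals mark Runx in the Ssbp2 window, Ets matches in the Ssbp3 window, and an E-box, an Ets and a Myb string in the Lmo2 window. Ldb1 had a single Ets string, Fli1 had Cebp, E-box, Ets and Gata strings, and Pde4d had a Gata string, an E-box and a pair of Ap1 strings. The Sec24b window held none of the 12 strings.

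Of the 10 strongest P300KO-held regions, 2 were in introns of Ssbp2 and Ssbp3, which encode Ldb1-binding proteins; neither gene is in the lists, and the pair was picked out after the ranks were seen. The Ssbp2 region (chr13:91611578-91612300; the nearest protein-coding start is that of Acot12, 129212 bp away) ranked 30687, 25164, 25603 and 30510 in P300KO replicates 1 to 4 and 64043, 51994, 61575 and 96914 in TET2KO replicates 1 to 4. It was held by 0 of 4 WT and 4 of 4 P300KO_TET2KO libraries. The Ssbp3 region (chr4:106951401-106951784, 14642 bp from the start) ranked 28560, 27562, 30195 and 27063 in P300KO, and only TET2KO replicate 4 had any interval there, at rank 54938. No P300KO_TET2KO library had an interval at Ssbp3, and 2 of 4 WT libraries held it.

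Among the core blood transcription factors, P300KO-held regions lay nearest Lmo2, Tal1 and Erg. Lmo2 encodes the LIM-only protein that bridges Tal1 and Gata factors, and its region (chr2:103893729-103894204, intergenic, 63782 bp from the start) ranked 31917, 47826, 37720 and 36047 in P300KO and 65793, 80394, 71266 and 64770 in TET2KO. The region nearest Tal1, the basic helix-loop-helix factor that blood formation requires, lies outside Tal1 itself and ranked 49326, 49389, 41171 and 36017 in P300KO and 53507, 68657, 59446 and 58702 in TET2KO. The Erg region (chr16:95464582-95465087, intron, 5234 bp from a start) ranked 38763, 37722, 41572 and 47797 in P300KO and 51065, 70419, 67797 and 89402 in TET2KO. At Tal1 replicates 1 and 2 of P300KO sat just inside the limit of 50000, and at Erg replicate 1 of TET2KO sat just outside it.

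From the same list, TET2KO-held regions lay at Ldb1 and nearest Fli1. Ldb1 encodes the scaffold that joins Lmo2-containing complexes over distance. Its promoter region (chr19:46041748-46042276, 2127 bp from the start) ranked 29301, 40300, 38041 and 39047 in TET2KO and 51890 and 59595 in P300KO replicates 3 and 4, and P300KO replicates 1 and 2 had no interval there. It was held by 4 of 4 WT and 4 of 4 P300KO_TET2KO libraries. Fli1 encodes an Ets factor, and its region (chr9:32549099-32550124, intergenic, 6238 bp from the start) ranked 41292, 29338, 41291 and 46244 in TET2KO and 61602, 80782, 57579 and 55836 in P300KO. Of the 253 regions assigned to 21 core blood transcription factors, 3 were P300KO-held (1.19%) and 2 were TET2KO-held (0.791%), against 0.168% and 0.17% of all regions.

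**Figure D1:**
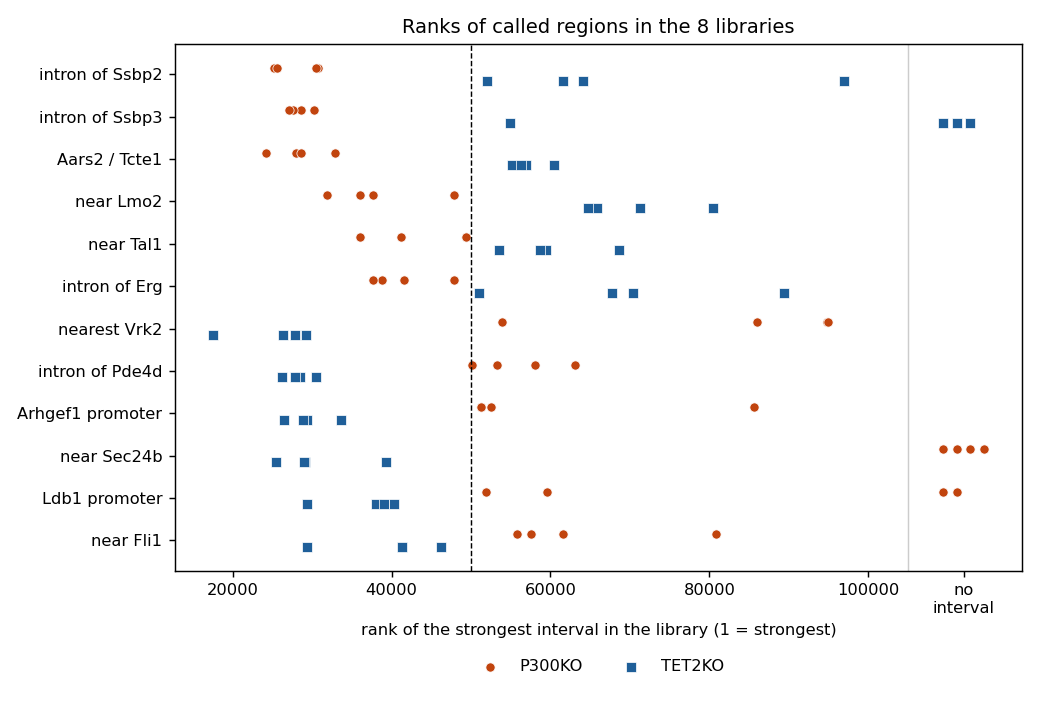
Rank of the strongest interval at 12 called regions in each P300KO (circles) and TET2KO (squares) library, with the dashed line at rank 50000 and libraries with no interval at the right. The 6 P300KO-held regions have all 4 circles left of the line and the 6 TET2KO-held regions have all 4 squares there; at Sec24b no P300KO library had an interval.

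By mean rank the strongest P300KO-held regions were, after the exon of Gfpt1, the first enzyme of hexosamine synthesis (chr6:87085007-87085726), and the Ssbp2 and Ssbp3 regions, those at Aars2 with Tcte1 as the nearest protein-coding start, Ankrd55, Ccr4 (inside Trim71), Pgd, Hip1r, Eif4g3 and Pald1. The Gfpt1 region ranked 28959, 31372, 28120 and 20850 in P300KO, 63488, 60086 and 74867 in TET2KO replicates 1, 3 and 4, and TET2KO replicate 2 had no interval. The Aars2 region (chr17:45517453-45518118, within 3 kb of a start) ranked 32848, 28017, 28597 and 24236 in P300KO and 56967, 60384, 55170 and 56250 in TET2KO. Ccr4 encodes a T cell chemokine receptor, and its region ranked 27732, 13119, 46323 and 35006 in P300KO, so replicate 3 was the weakest holder. A second region nearest Tcte1 (chr17:45522936-45523634) was TET2KO-held, and Sik3 and Tbl1xr1 likewise had 1 region held each way.

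The strongest TET2KO-held regions were those nearest Vrk2, Pde4d, Scarb1, Arhgef1, Sec24b, Smad7, Ttl, Noxa1, Prss52 and Elavl4. The region nearest Vrk2 (chr11:26804778-26805492, 210779 bp from the start) ranked 27790, 29236, 17592 and 26325 in TET2KO and 94826, 53906, 85973 and 94868 in P300KO, and P300KO_TET2KO libraries ranked it at 16505, 26064, 22611 and 19216. WT replicates 3 and 4 ranked it at 97336 and 31039, and WT replicates 1 and 2 had no interval there. Pde4d encodes a cAMP phosphodiesterase, and its intronic region (chr13:108714010-108714563) ranked 28468, 26217, 27911 and 30446 in TET2KO and 58018, 50120, 63029 and 53259 in P300KO, where replicate 2 missed the limit by a small margin. Arhgef1, a RhoA exchange factor of blood cells, had its promoter region (chr7:24907097-24907673) at 33659, 29389, 26471 and 28915 in TET2KO and at 51246, 85608, 51294 and 52501 in P300KO. Smad7, an inhibitor of TGF-beta signaling, and Tox3 each had 2 TET2KO-held regions.

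Regions of 6 other genes from the lists were called, each the only one of its list: 1 of 166 for Cebpe, 1 of 56 for Vwf, 1 of 164 for Notch2, 1 of 31 for Cd79b, 1 of 99 for Cxxc4 and 1 of 58 for Pecam1, against 0.168% and 0.17% of all regions. The P300KO-held regions included those nearest Cebpe, the factor of late granulocyte maturation (in an intron of Slc7a8; 47055, 45801, 44544 and 40372 in P300KO and 74032, 66665, 63225 and 51096 in TET2KO), Vwf, Notch2 and Cd79b (in an exon of Scn4a). The TET2KO-held regions included the Cxxc4 promoter and an intron of Pecam1. Cxxc4 encodes a CXXC-domain protein that binds Tet2, and its promoter region (chr3:134235818-134236653) ranked 40127, 25330, 40424 and 49541 in TET2KO and 61711, 56292, 55038 and 67323 in P300KO. Cd79b and Pecam1 come from the lists of mature lymphocyte and of endothelial markers, and no other region of those lists was called.

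By mean rank the called regions lay in the weaker part of the strongest 50000, and most still had a weaker interval in the other genotype. The median of their mean rank in the holders was 40848 for P300KO-held and 41281 for TET2KO-held regions. In 63 P300KO-held regions (56.2%) all 4 full TET2KO lists also had an interval, ranked past 50000, and in 58 TET2KO-held regions (51.3%) all 4 full P300KO lists had one. No P300KO-held region, and 3 TET2KO-held regions, lacked an interval in every library of the other genotype: those nearest Sec24b, Ttl and Pla2g4e. At Ttl, WT replicate 4 held the region at rank 37426, and at Pla2g4e WT replicate 4 held it at rank 33505.

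A region near Sec24b, which encodes a COPII coat protein, followed Tet2 genotype in all 16 libraries. It (chr3:130090222-130090871, intergenic, 29315 bp from the Sec24b start) ranked 39299, 29134, 28980 and 25437 in TET2KO and 34428, 33993, 30535 and 35847 in P300KO_TET2KO, and neither P300KO nor WT had an interval there in any of 8 libraries. The Sec24b region lies 3.41 Mb from Tet2 on chromosome 3, and the Cxxc4 region lies 0.731 Mb from it. Within 20 Mb of Tet2 there were 2 P300KO-held and 4 TET2KO-held regions among 798 (0.251% and 0.501%, against 0.168% and 0.17% of all regions), and within 20 Mb of Ep300 2 and 2 among 1732 (0.115% each). Near Tet2 the others were nearest Slc35a3 and Ssx2ip (P300KO-held) and Dnajb14 and Etnppl (TET2KO-held). Sequence inherited with the Tet2 allele and the loss of Tet2 itself cannot be told apart in such regions.

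**Figure D2:**
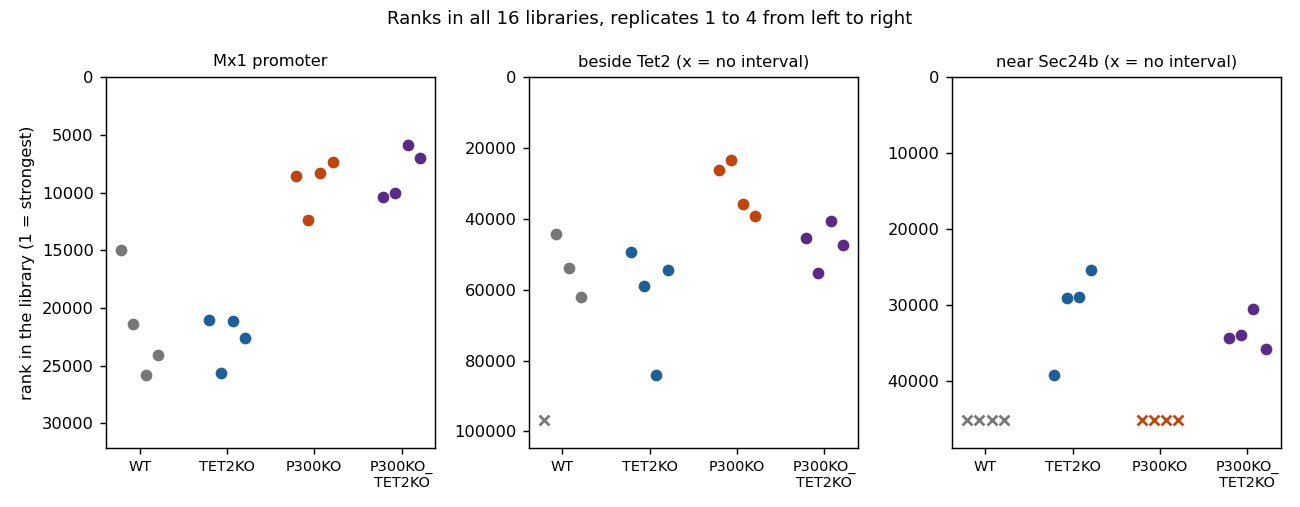
Rank of the strongest interval (1 is strongest, at the top) at the Mx1 promoter, at a region beside Tet2 and at the region near Sec24b in all 16 libraries, 4 per genotype, with a cross where a library had no interval. The Mx1 promoter ranked higher in all 8 libraries from Mx1-Cre mice than in the other 8, and the Sec24b region had an interval in the 8 Tet2-/- libraries only.

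Few regions that differed in 1 pair did so in the other. On the same 66662 regions, pair 1 by itself held 1445 regions in both P300KO and neither TET2KO library and 1702 the other way, and pair 2 held 1373 and 1448. Of these, 112 and 113 were shared by the pairs, or 7.75% and 6.64% of those in pair 1 and 8.16% and 7.80% of those in pair 2. Regions that were held in opposite ways numbered 27 (P300KO-held in pair 1) and 40 (TET2KO-held in pair 1). Calls in the same direction outnumbered calls in opposite directions, and most of the difference within a pair was not found in the other pair.

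**Figure D3:**
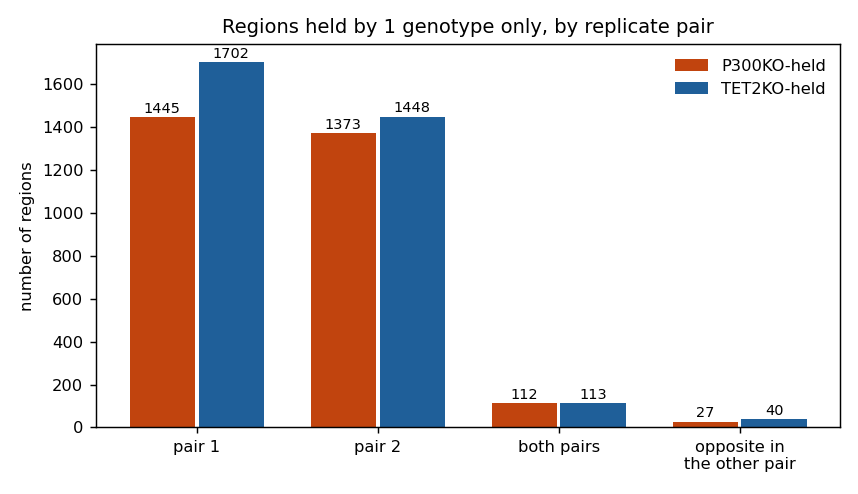
Number of regions held by both libraries of 1 genotype and by neither library of the other in pair 1 and in pair 2, in both pairs, and in opposite directions in the pairs (colored by the genotype that held the region in pair 1). Between 1373 and 1702 regions differed in each direction in either pair, and 112 and 113 did so in both.

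Distal regions made up 71.4% of P300KO-held, 60.2% of TET2KO-held and 56.5% of all regions, distal meaning over 3 kb from any transcription start. P300KO-held regions were narrower (median 508 bp against 669 bp for TET2KO-held and for all regions). A region joins all intervals that overlap, and a called region joins those of 1 genotype only, so widths depend on how regions were built. The median interval width of the libraries averaged 544 bp in P300KO and 579.5 bp in TET2KO. The 12 strings were searched on both strands of the window. The Gata string was read as GATAAG, the Ets string was read as AGGAAG, the Runx string was read as TGTGGT and the E-box of Tal1 was read as CAGATG. The Cebp string was read as TTGCNNAA, the Ap1 string was read as TGANTCA, the Myb string was read as TAACNG, the Creb string was read as TGACGT and the Tcf/Lef string was read as TTCAAAG. The longer Irf, NFkB and Ctcf strings are given by name. Among distal regions, Ets strings stood in 67.5% of 80 P300KO-held windows and 48.5% of 68 TET2KO-held windows, against 48.2% of all 37638 distal windows. Gata strings stood in 15% of P300KO-held, 8.82% of TET2KO-held and 7.65% of all distal windows, and Cebp strings in 17.5%, 7.35% and 10.1%. Runx strings leaned the other way, with 26.2% of P300KO-held, 42.6% of TET2KO-held and 28.6% of all distal windows. Ap1 stood in 6.25%, 11.8% and 9.25%, and NFkB in 1.25%, 5.88% and 3.9%. Ctcf strings were less frequent in both (6.25% and 7.35% against 16.2%). All distal regions include the strongest intervals and were not matched to the called regions by rank. These shares rest on 80 and 68 regions that were chosen by their ranks, and are given as a description.

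**Figure D4:**
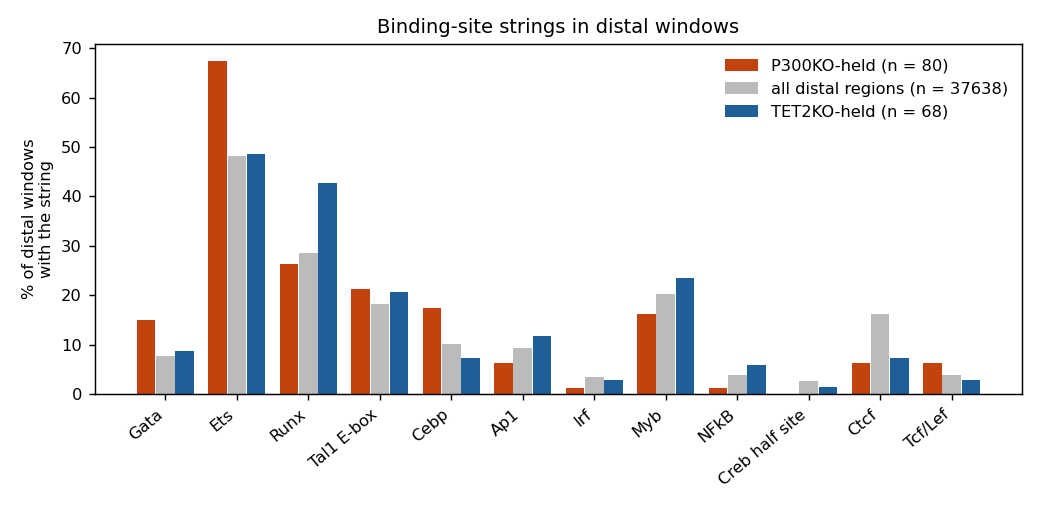
Share of distal windows of 201 bases that held each of 12 strings, for P300KO-held regions, all distal regions and TET2KO-held regions. Ets, Gata and Cebp bars are highest for P300KO-held regions (67.5%, 15% and 17.5%) and Runx, Ap1 and NFkB bars for TET2KO-held regions (42.6%, 11.8% and 5.88%).

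Over all strongest distal intervals of each library the differences were small, and for Ets, Myb, Ctcf and Tcf/Lef they lay opposite to those of the called regions. Cebp strings stood in 10.1%, 10.1%, 10.5% and 10.2% of the distal windows of P300KO replicates 1 to 4 and in 9.95%, 9.64%, 9.54% and 9.10% of those of TET2KO. Every P300KO library lay above every TET2KO library (mean 10.2% ± 0.179 against 9.56% ± 0.349, SD, n = 4; exact permutation p = 0.0286, the smallest that 4 against 4 allows; adjusted over 12 strings, p = 0.343). Gata strings averaged 7.95% ± 0.414 in P300KO and 7.34% ± 0.706 in TET2KO (exact permutation p = 0.229), and the groups overlapped because both genotypes had fewer in pair 2. Within pairs every P300KO library had more Gata and Cebp and fewer Runx and NFkB strings than every TET2KO library of its pair (exact permutation within pairs p = 0.0556, the smallest possible; adjusted p = 0.167 for each). Ets strings averaged 48.3% ± 0.699 in P300KO and 48.7% ± 0.987 in TET2KO (exact permutation p = 0.429), the reverse of their order in the called regions. With 1 library left out the Ets difference ranged from −0.755 to −0.0513 percentage points, and was smallest without TET2KO replicate 3. After adjustment 0 of 12 strings passed in the exact test of 4 against 4, and 1 had an unadjusted p under 0.05 (Cebp). Of the share of distal intervals, CpG density, GC content and interval width, 0 of 4 passed in that test. The test within pairs could pass none, since its smallest possible p is above 0.05. The called regions are part of these lists, so the shares over all windows are not independent of them.

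WT and P300KO_TET2KO libraries took no part in the calls. P300KO_TET2KO libraries held 40.2%, 43.8%, 53.6% and 50% of the P300KO-held regions and WT libraries held 22.3%, 53.6%, 32.1% and 32.1% (46.9% ± 6.03 against 35.0% ± 13.2, SD, n = 4 each; exact permutation p = 0.2, adjusted p = 0.4). The TET2KO-held regions were held at 53.1%, 57.5%, 55.8% and 54.9% in P300KO_TET2KO and at 33.6%, 42.5%, 66.4% and 77.0% in WT (55.3% ± 1.84 against 54.9% ± 20.2; exact permutation p = 1). Both differences turned negative with the strongest 30000 intervals, to −3.08 and −8.95 percentage points. WT varied far more than P300KO_TET2KO, with pair 1 below pair 2 for the TET2KO-held regions. WT replicate 1, whose interval at rank 50000 had a −log10 p of 4.11, was the lowest in both sets.

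The ranks were also compared without a limit, over the 51852 regions that had an interval in all 8 full lists. Ranks were turned into normal scores, on which a positive difference means a stronger rank in P300KO, and tested with limma with the pair as a term. No region passed an adjusted p of 0.05 (0% of those tested). The smallest limma p was 1.75e-06, with an adjusted p of 0.0823, and 3171 regions (6.12%) were higher in P300KO and 3263 (6.29%) higher in TET2KO at an unadjusted p under 0.05. The count depended on the form of the fit: with log2 ranks 37 and 41 regions passed, and with a prior variance that follows the mean score, an alternative chosen after seeing the data, 71 and 119 passed. The differences of the pairs correlated weakly across regions (r = 0.215, and 55.6% had the same sign).

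The regions with the smallest p, none of which passed the adjusted threshold, were Aars2/Tcte1, Krt4, Tcf4, Arhgap12 and Stxbp4 on the P300KO side and Glis1, Pde4d, Dusp2, Psmg3 and Pdgfb on the TET2KO side (limma adjusted p = 0.0823 for each). Glis1 encodes a Krüppel-like zinc finger factor, and its intronic region (chr4:107457443-107458058) showed the largest of these differences, ranking 61735, 41999, 49608 and 48389 in P300KO and 12955, 13388, 9679 and 14387 in TET2KO (difference −1.70, SE 0.165). P300KO_TET2KO libraries ranked it at 15526, 20794, 11747 and 12025, and WT replicates 2 to 4 at 57887, 43591 and 19674, with no interval in WT replicate 1. Dusp2, a phosphatase that acts on MAP kinases, had an intergenic region (chr2:127313892-127315177) at 47559, 41781, 47748 and 48350 in P300KO and 19713, 25329, 25987 and 27187 in TET2KO (difference −0.93, SE 0.0980). Stxbp4 had an intronic region (chr11:90585662-90586870) at 19509, 18707, 16746 and 14999 in P300KO and 35139, 34932, 34362 and 33291 in TET2KO (difference 0.78, SE 0.0793). The groups did not overlap at any of these 3, as in 2.6% of tested regions on the P300KO side and 2.55% on the TET2KO side.

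At an unadjusted p under 0.05, genes of early response and of the cell cycle had more regions ranked higher in TET2KO. Of 161 regions of AP-1 and early response genes, which are induced within minutes of a stimulus, 20 were higher in TET2KO and 6 in P300KO at an unadjusted p under 0.05 (12.4% and 3.73%), against 6.29% and 6.12% of all regions. At Fos 4 of 15 regions, at Nr4a1 3 of 9, and at Dusp2 2 of 6 were higher in TET2KO, and none at these genes was higher in P300KO. An intronic Nr4a1 region (chr15:101258371-101259029) ranked 87385, 68405, 72744 and 75403 in P300KO and 56691, 44619, 44725 and 29933 in TET2KO (difference −1.19, SE 0.210; limma adjusted p = 0.106). The counts ran the other way at Ier3 (2 of 9 higher in P300KO, 1 in TET2KO), Batf (2 of 10 and 1) and Zfp36 (1 of 5 and 0). Cyclins and cell-cycle inhibitors had 11 of 91 regions higher in TET2KO and 2 higher in P300KO (12.1% and 2.2%). Ccnd2, the D-type cyclin, had 3 of 10, among them a promoter region (chr6:127154535-127155261) that ranked 31397, 40397, 43997 and 52894 in P300KO and 23521, 20944, 29154 and 29700 in TET2KO (difference −0.69, SE 0.122; limma adjusted p = 0.106). The median difference over all regions of each list was −0.02 and −0.01. Genes named here by these values, and Mx1, were chosen after their values were seen.

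At an unadjusted p under 0.05, stem cell genes and Hox clusters also had more regions on the TET2KO side and erythroid genes more on the P300KO side, while the medians over each list were near 0. The median difference was 0.02 for stem cell factors, toward P300KO and so opposite to their counts, and −0.05 for the Hox clusters. For erythroid genes it was 0.06, with 0.11 in pair 1 and −0.00035 in pair 2. Of 101 regions of stem cell factors, 10 were higher in TET2KO and 3 in P300KO (9.9% and 2.97%, against 6.29% and 6.12% of all tested regions), and the 10 include regions of Hoxb4 and Hoxa9, which the Hox list also holds. A region near Fgd5, a marker of long-term stem cells (chr6:91971832-91973002), ranked 36000, 30954, 19777 and 21854 in P300KO and 11330, 10380, 10235 and 8171 in TET2KO (difference −0.89, SE 0.122; limma adjusted p = 0.0823). A region 27414 bp from Gata2 ran the other way, at 7588, 11006, 15376 and 12239 in P300KO and 16447, 33338, 33920 and 30375 in TET2KO (adjusted p = 0.129 by limma). In the Hoxa and Hoxb clusters 6 of 39 regions were higher in TET2KO and 0 in P300KO (15.4%), at Hoxb4, Hoxb6, Hoxa11, Hoxb1, Hoxa9 and Hoxb9. Erythroid genes had 7 of 54 regions higher in P300KO and 1 in TET2KO (13.0% and 1.85%), including the promoter of Nfe2, a factor of erythroid and megakaryocyte cells, at 46261, 39190, 41395 and 50134 in P300KO and 57525, 55109, 61262 and 75482 in TET2KO (adjusted p = 0.138 by limma).

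The remaining lists are given by their counts at an unadjusted p under 0.05, with P300KO first, against 6.12% and 6.29% of all tested regions. NF-kB genes had 10 of 97 regions higher in P300KO and 4 in TET2KO (10.3% and 4.12%), and Notch pathway genes 5 of 134 and 13 (3.73% and 9.70%). Myeloid fate regulators had 15 of 141 and 16 (10.6% and 11.3%), core blood transcription factors 20 of 215 and 13 (9.3% and 6.05%), and cytokine receptors 12 of 98 and 8 (12.2% and 8.16%). Much of the P300KO count of the cytokine receptors came from Il1r1 (3 of 9 regions) and Il1rl1 (3 of 4), with 0 higher in TET2KO at either gene. Among the core factors, Lmo2 had 4 of 13 regions higher in P300KO and Etv6 2 of 15, with none higher in TET2KO, while Tal1 had 1 of 8 higher in P300KO and 2 in TET2KO. At Lmo2 the promoter (chr2:103969302-103970849) ranked 6645, 7044, 9899 and 10802 in P300KO and 11634, 11455, 11938 and 11732 in TET2KO (difference 0.22, SE 0.0873; limma adjusted p = 0.354). Jak-Stat genes (8 of 113 each way), DNA methylation genes (4 of 76 each way), lymphoid, megakaryocyte, polycomb, acetyltransferase and Bcl2 family genes had between 1.47% and 9.8% of their regions in either direction. Neutrophil granule genes had 1 of 31 regions higher in P300KO and 3 in TET2KO. Of the lists for other cell types, macrophage markers had 0 of 24 and 3 (12.5%), mature B and T cell markers 2 of 25 and 1, and stromal and endothelial markers 0 of 40 and 1.

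**Figure D5:**
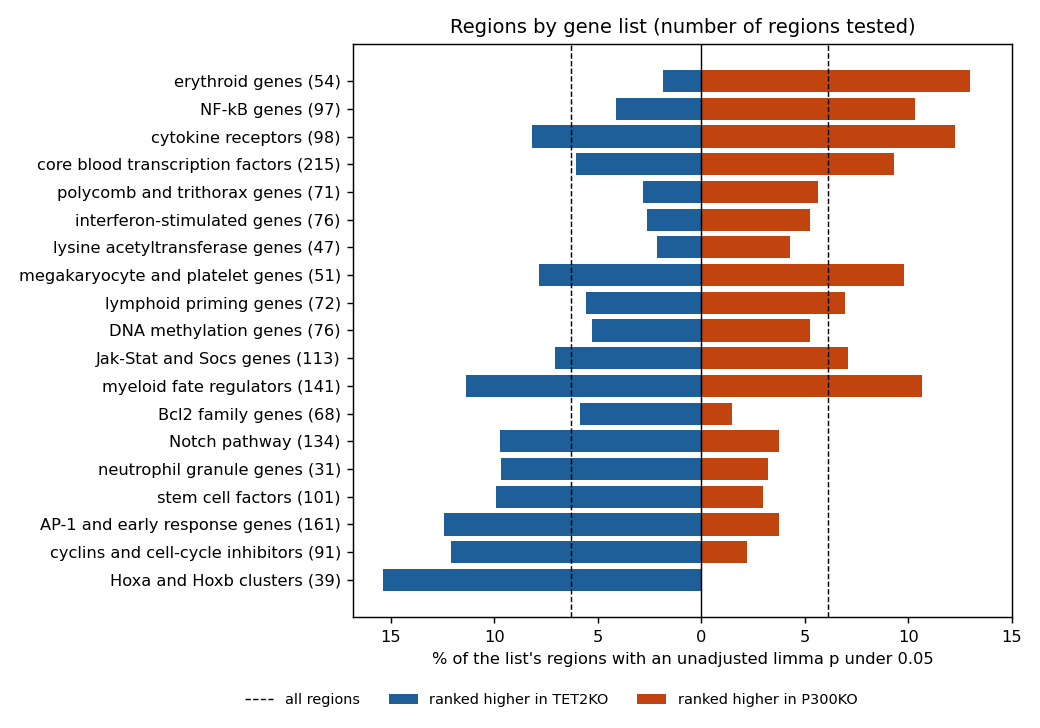
Share of the tested regions of each of 19 gene lists (number of regions in parentheses) that ranked higher in P300KO (right) or in TET2KO (left) at an unadjusted limma p under 0.05, with dashed lines at the shares over all regions (6.12% and 6.29%). Erythroid genes reach 13.0% on the P300KO side, and Hox clusters (15.4%), AP-1 genes (12.4%) and cyclins (12.1%) reach furthest on the TET2KO side.

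Myb, which encodes a factor that HSPCs need for self-renewal and that recruits p300, had 19 regions. P300KO replicates 1 to 4 held 14, 13, 12 and 10 of them, TET2KO 8, 10, 9 and 9, WT 8, 10, 9 and 9, and P300KO_TET2KO 11, 10, 12 and 11. The lowest P300KO count equalled the highest TET2KO count. Of 12 regions at Myb tested by rank, 4 were higher in P300KO and none in TET2KO at an unadjusted p under 0.05, against 6.12% and 6.29% of all tested regions. The clearest (chr10:21146176-21147204, over an internal Myb start) ranked 61176, 60765, 54097 and 52059 in P300KO and 77667, 78456, 80535 and 72622 in TET2KO (difference 0.78; limma adjusted p = 0.0823). The main Myb promoter (chr10:21160496-21161801) ranked 12536, 16063, 18296 and 24968 in P300KO and 19279, 11875, 25761 and 26166 in TET2KO, and the groups overlapped.

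The Mx1 promoter ranked higher in every library from Mx1-Cre mice than in any other. Mx1 is an interferon-induced antiviral GTPase. Its promoter (chr16:97462592-97464459) ranked 8526, 12398, 8320 and 7397 in P300KO and 21054, 25669, 21104 and 22587 in TET2KO (difference 0.76, SE 0.0991; limma adjusted p = 0.0823). In the other libraries it ranked 10425, 10017, 5850 and 7026 in P300KO_TET2KO and 15005, 21364, 25847 and 24073 in WT. The Mx1-Cre transgene carries a copy of the Mx1 promoter, and reads from the transgene and from the native gene cannot be told apart here. Interferon-stimulated genes as a list had 4 of 76 regions higher in P300KO and 2 in TET2KO (5.26% and 2.63%, both below the 6.12% and 6.29% of all tested regions), and 2 of those 4 were at Mx1. Just beyond the 3′ end of Tet2 a region (chr3:133463081-133463621) ranked 26153, 23516, 35682 and 39299 in P300KO and 49500, 58991, 84197 and 54473 in TET2KO (difference 1.21, SE 0.209; limma adjusted p = 0.104). P300KO_TET2KO libraries ranked it at 45504, 55249, 40743 and 47258, and WT replicates 2 to 4 at 44216, 54006 and 62099, with no interval in WT replicate 1. Every P300KO rank was stronger than every rank of the other genotypes, by a small margin (39299 in P300KO replicate 4, 40743 in P300KO_TET2KO replicate 3). The cause was not tested.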

How the data were processed

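ATAC-seq of sorted mouse HSPCs was analysed from the interval lists the authors deposited, 1 per library. Per the labels and methods, reads were trimmed (cutadapt 1.9.1), aligned to mm10 (Bowtie2 2.2.6), deduplicated and shifted for the transposase offset, and peaks were called in each library separately with MACS2 2.1.0. The deposited values are fold enrichment (a ratio), the −log10 p-value and the −log10 q-value at each summit. The methods state a minimum number of reads per sample; the depth of each library is not in the interval lists, and their number limits the precision.

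Intervals were ranked within a library by −log10 p (ties by fold), an interval with several summits taking its highest, and the strongest 50000 were kept. Intervals of the 8 libraries sharing at least 1 bp were merged into regions. Genes are from GENCODE M21, a region being named by the nearest protein-coding start and assigned to a list gene within 100 kb. Sequence is GRCm38.p6, the build of mm10, and every interval ended within the length of its chromosome. Library values were compared by two-sided exact permutation tests (70 regroupings, 36 within pairs) with Benjamini-Hochberg adjustment over 12 strings or over 4 other measures, and ranks as normal scores by limma 3.58.1 (R 4.3.3) over 51852 regions. Scripts ran in Python 3.11.15 and were tested on simulated data. Regions named are the 10 strongest held each way, the 5 smallest limma p each way, called regions of the gene lists, and Ep300, Tet2 and Myb; any other region named was picked with its values in view. The regions compared and the 22 gene lists were chosen with earlier results of these data known.

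The labels call each library an independent biological replicate. Pair 1 and pair 2 differ in that the labels name a merged peak file for replicates 1 and 2 only. Same-numbered P300KO and TET2KO libraries deviated together from their group means (correlations of 0.226 to 0.386 over regions), which counts as pairing; libraries of other numbers in the same pair did so as well (0.193 to 0.350). Some items are not reported here.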

Additional observations from a re-analysis of the deposited data

Results flagged for a closer look

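In 2 of the 38 sets of 4 libraries tested, 1 library lay far from the other 3 relative to the range of the set, a number that chance alone would give at about 1 set in 20. The share of distal windows with an Irf string was 3.51% in P300KO replicate 1 and 3.36% to 3.38% in the other P300KO libraries. The share with a Tcf/Lef string was 3.81% in TET2KO replicate 2 and 3.74% to 3.75% in the other TET2KO libraries. Both strings were among those with no difference between the genotypes past the threshold.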

How the results depend on the processing

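The number of called regions moved with the list length and the call rule. P300KO-held regions numbered 65 with the strongest 30000 intervals and 71 with all intervals, and TET2KO-held regions 195 with the strongest 80000 and 69 with all intervals. Asking for 3 or 4 libraries of one genotype and 0 or 1 of the other gave 1501 and 1452, in pair 1 alone 1461 and 1728, and in pair 2 alone 1383 and 1467. Leaving out 1 library, which by construction asks less of the others, gave 173 to 248 P300KO-held and 179 to 243 TET2KO-held regions. Ranking by fold enrichment, covering at least 50% of a region or using summit windows kept both counts within 1.5 times. The limma calls (0 and 0) became 37 and 41 with log2 ranks, 6 and 2 in regions among the strongest 50000 of at least 4 lists, and 71 and 119 with the mean trend added after seeing the data; pair 2 alone gave 1 in TET2KO. Leaving out 1 library gave 0 to 1 P300KO and 0 to 3 TET2KO regions. The cause was not tested.

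With the replicate number as a block limma called 0 and 0 regions (smallest adjusted p 0.187), and the exact test on same-numbered differences cannot go below 0.125; the block changed no call. The difference between P300KO_TET2KO and WT shares turned negative with the strongest 30000 intervals (−3.08 and −8.95 percentage points for the P300KO-held and TET2KO-held regions) and ranged from 7.59 to 18.0 and from −6.64 to 7.82 when a library was left out.

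The P300KO minus TET2KO differences for Cebp, Gata, Runx, Ets, Ap1, NFkB and GC content kept their direction under every alternative run, but not their size. Cebp was 0.403 percentage points with the strongest 80000 intervals (exact permutation p = 0.2), 0.316 in pair 1 alone and 1.01 in pair 2 alone. With 1 library left out Runx ranged from −1.02 to −0.474 and NFkB from −0.432 to −0.171. Small differences turned. With the strongest 30000 intervals Tcf/Lef became 0.0372 percentage points, and with the strongest 80000 Creb became 0.0425 and CpG 0.00107 per 100 bp. Windows of 50 bp either side gave 0.0114 for Irf. Pair 1 alone gave −0.0223 for the Tal1 E-box, −0.0985 for Myb, −0.689 for Ctcf and 0.0550 for Tcf/Lef, and pair 2 alone 0.000508 for CpG. With 1 library left out the differences ranged from −0.195 to 0.498 for Ctcf, −0.0409 to 0.164 for Myb, −0.0524 to 0.127 for the Tal1 E-box, −0.0556 to 0.0241 for Tcf/Lef, −0.0200 to 0.00951 for CpG, −0.158 to 0.822 for the share of distal intervals and −63 to 0.833 bp for width.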

Other observations

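Chromosome Y gave few of the strongest intervals, 12 and 20 in P300KO and 13 and 22 in TET2KO replicates 1 and 2, and 2 and 1 in P300KO and 7 and 8 in TET2KO replicates 3 and 4. Chromosome X had 888 to 1017 in these 8 libraries, and of its 1356 regions 0 were P300KO-held and 1 was TET2KO-held (0.0737%), against 0.168% and 0.17% of all regions.

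Libraries of pair 2 resembled each other more than those of pair 1. The normal scores of the 51852 regions correlated at 0.962 to 0.965 between P300KO or TET2KO libraries of the same genotype in pair 2 and at 0.939 to 0.944 between genotypes, against 0.879 to 0.911 and 0.860 to 0.893 in pair 1. Across pairs the correlation was 0.828 to 0.893. These are correlations across regions, which are not independent replicates.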
